A study of Mus musculus with 28 samples.

Results

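The 10 genes described here belong to the integrated stress response, the branch of cell signalling that runs through phosphorylation of the translation initiation factor eIF2. They are Atf4, Atf5, Ddit3, Ppp1r15a, Ppp1r15b, Trib3, Chac1, Asns, Sesn2 and Ddit4. The list was taken by name, with earlier results of these data known, from the 45513 genes of the count tables, and all 10 were found there. Footprints, the mRNA pieces that a ribosome protects from nuclease, and poly(A)-selected total mRNA were sequenced from the same cultures, in 28 libraries. MN1 cells are a clonal hybrid line made from mouse spinal motor neurons and mouse neuroblastoma cells. They were transiently transfected with a plasmid for GFP (the control), for tagged human TDP-43 (hTDP-43) or for the ALS mutant hTDP-43 A315T (A315T), with 2 cultures each. Cortical neurons were prepared from embryos at day 16, with the labels giving C57BL/6J, and were harvested after 14 days in vitro. They came from wild-type (WT) littermates (2 cultures), or from mice hemizygous for a transgene for hTDP-43 (3 cultures) or for A315T (3 cultures), both driven by the prion protein promoter. Neurons were given cytosine arabinoside in culture to remove dividing cells, which the methods do not describe for MN1 cells. MN1 cells were given cycloheximide before lysis and neurons were not. Cell type, transfection or transgene, these drugs and culture date thus cannot be told apart when the cell types are compared.

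When eIF2 is phosphorylated, the initiation of most translation falls. A few mRNAs with upstream open reading frames, short frames that start in the 5′UTR, are known to be translated more under that condition. Atf4 is the best known of them. A ribosome that has finished a short frame tends to start again at a later frame that runs into the coding sequence. When active eIF2 is scarce it tends to miss that start and reach the start of Atf4 itself. ATF4 then binds the promoters of genes for amino acid supply, for redox balance and for shutting the response off. In neurons the pathway is known for its part in synaptic plasticity and in neurodegeneration. No stressor meant to induce this response is described for these cultures. The values below are thus levels in the transfected or transgenic cells as they were grown, the neurons with cytosine arabinoside.

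The sequences around the start codons come first, since the reading frames are what most of these mRNAs share. Each window below runs 5′ to 3′ along the mRNA and holds 20 bases of GRCm38, with the AUG start codon (ATG in DNA letters) in capitals. Atf4 (chr15:80255184-80257540, plus strand) and Atf5 (chr7:44812257-44816658, minus strand), both bZIP transcription factors, were the members with a frame that overlapped the coding sequence.
Atf4, upstream frame 1 (36 codons, chr15:80255293-80255312, plus strand): cttttctctcATGgggcctt
Atf4, upstream frame 2 (3 codons, chr15:80255572-80255591, plus strand): tgcggccaccATGgcgtatt
Atf4, overlapping frame 3 (59 codons, spliced from within chr15:80255671-80256211, plus strand): ggcctaagccATGgcgctct
Atf4, start of the coding sequence (chr15:80256289-80256308, plus strand): gccccacaacATGaccgaga
Atf5, upstream frame 1 (3 codons, chr7:44816528-44816547, minus strand): cgcccgcgcaATGgctctgt
Atf5, overlapping frame 2 (58 codons, spliced from within chr7:44815278-44816416, minus strand): tttcgccgccATGgagtcct
Atf5, start of the coding sequence (chr7:44815157-44815176, minus strand): tgtcacagccATGtcactcc
Frames are numbered by their AUG from the 5′ end, so in Atf4 the short frame just before the overlapping one is frame 2. In Atf4 the overlapping frame started at position -97 from the A of the main AUG and its stop codon began 80 nucleotides after that A. In Atf5 the overlapping frame started at position -121 and its stop codon began 53 nucleotides after the main A. Both overlapping frames, and the 3-codon frames before them, had a purine at position -3 from their own A and a G right after the AUG, the pair of bases that favours a start. The main starts of Atf4 and Atf5 had the purine and not the G.

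Ddit3 (chr10:127290774-127296288, plus strand) encodes CHOP, a transcription factor linked to cell death. Ppp1r15a (chr7:45522916-45526268, minus strand) encodes GADD34 and Ppp1r15b (chr1:133131143-133139783, plus strand) encodes CReP, the induced and the constitutive subunits that direct protein phosphatase 1 to eIF2. Their upstream frames all ended before the coding sequence. The windows show the frames nearest to it and, for Ddit3, a pair of starts that share 1 frame.
Ddit3, upstream frame 1 (34 codons, chr10:127290819-127290838, plus strand): cgattatatcATGttgaaga
Ddit3, upstream frame 2 (31 codons, chr10:127290828-127290847, plus strand): catgttgaagATGagcgggt
Ppp1r15a, upstream frame 3 (26 codons, chr7:45526080-45526099, minus strand): tgagggcgacATGaacccgc
Ppp1r15b, upstream frame 3 (51 codons, chr1:133131507-133131526, plus strand): cctagccgggATGgacctaa
The starts of Ddit3 at positions -131 and -122 led to the same stop codon at -29. Ppp1r15a had 3 upstream AUGs, at -249, -205 and -104, and Ppp1r15b had 3, at -502, -279 and -230.

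The other members are targets of ATF4 or of stress. Trib3 (chr2:152337422-152344032, minus strand) encodes a pseudokinase that binds ATF4 and CHOP. Chac1 (chr2:119351229-119354381, plus strand) encodes an enzyme that breaks down glutathione. Asns (chr6:7675169-7693254, minus strand) encodes asparagine synthetase. Sesn2 (chr4:132492032-132510501, minus strand) and Ddit4 (chr10:59949675-59951770, minus strand) encode inhibitors of the growth kinase complex mTORC1. No upstream AUG was annotated in the 5′UTRs used here for Trib3, Chac1 and Ddit4, so the description as genes with upstream frames did not hold for these 3 mRNAs as annotated. Sesn2 had 1, at position -300, and Asns had 2, at -148 and -145.

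**Figure D1:**
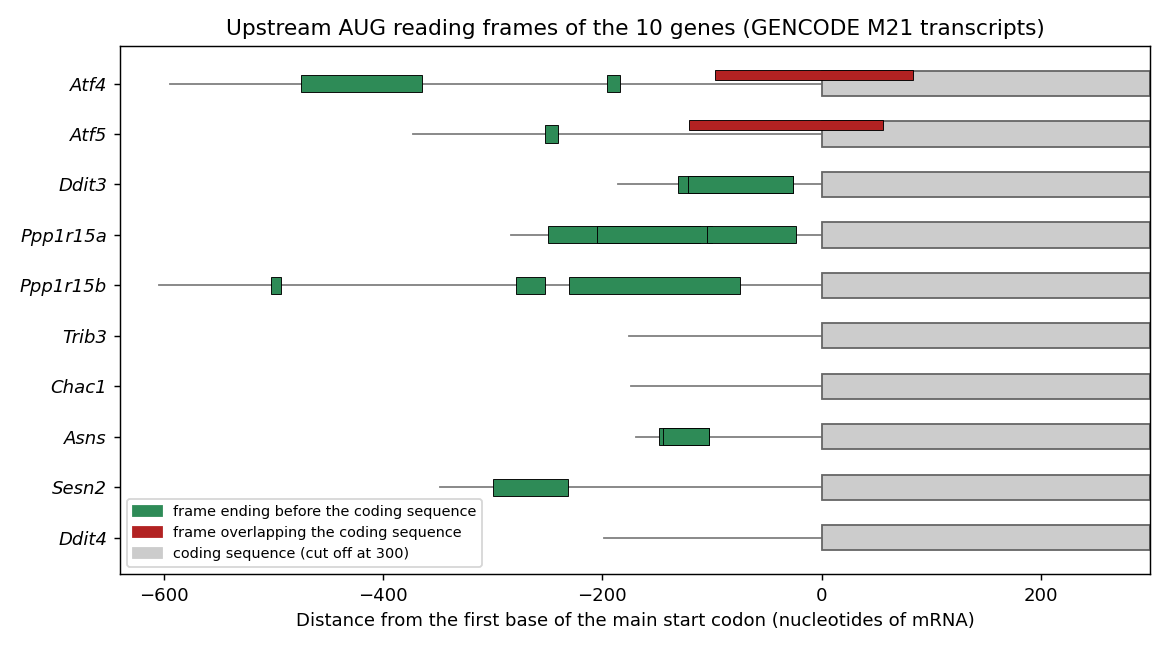
The 10 mRNAs are drawn to scale, with distance in nucleotides from the A of the main AUG on the x axis, the 5′UTR as a line, upstream frames as coloured bars and the first part of the coding sequence to the right of 0. Frames that cross 0 were found in Atf4 and Atf5 and in no other member, and 3 of the mRNAs had no upstream AUG.

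In all, 7 of the 10 members had at least 1 upstream AUG, against 50.1% of 21379 protein-coding genes. At least 2 were found in 6 members, against 30.0% of genes, and an overlapping frame in 2 members, against 16.5%. The median 5′UTR was 240.5 nucleotides long among the members and 153 among all these genes. These are counts from the annotation, and which frames the ribosomes used could not be read from counts per gene.

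Promoters were searched for the letters TGATGNAA on both strands, the core of the element that ATF4 and its C/EBP partners are known to bind. RefSeq promoters of 250 bases before to 50 after a gene's start (GRCm38.p6) were at hand for 9 of the members, with 2 for Atf5, and 3 of these 10 promoters (30.0%) held the letters, against 1304 of 32851 promoters (3.97%). The match is in capitals in each window, written along the gene's own strand.
Chac1 (chr2:119351041-119351064): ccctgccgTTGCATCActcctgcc
Trib3 (chr2:152344031-152344054): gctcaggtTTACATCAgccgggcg
Asns (chr6:7693217-7693240): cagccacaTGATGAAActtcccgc
The match began at position -193 from the start of Chac1, at 14 in Trib3 and at -23 in Asns. In Chac1 and Trib3 it was read on the opposite strand. In Asns the letters held the upstream AUG at -145 named above. That AUG and the one at -148 are in the 5′UTR of the GENCODE transcript but lie before the RefSeq start, so the 5′ ends of these annotations differ.

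Reads assigned to genes ranged from 332370 to 1219222 in MN1 footprint libraries, from 1328528 to 2988339 in MN1 total mRNA, from 166064 to 2528820 in neuron footprints and from 600385 to 6969578 in neuron total mRNA. Summed levels of 7 neuron markers in total mRNA were 4140 to 5590 CPM (counts scaled to the library's size) in neurons and 392 to 542 in MN1 cells. Summed levels of 5 motor neuron markers were 46.4 to 69.8 CPM in MN1 cells and 4.36 to 10.4 in neurons. Summed levels of 11 glia and microglia markers were 91.3 to 149 CPM in neuron total mRNA and 4.99 to 9.81 in MN1 total mRNA, where Aldh1l1, S100b and Mog were at 0. A pair of neuron cultures stood apart. In their total mRNA 18.8% (WT replicate 3) and 14.1% (hTDP-43 replicate 3) of reads fell on Lars2, against 3.09% to 7.49% in the other 12 total mRNA libraries, and some of the results below are given with and without them. In bulk libraries such as these, fewer cells that express a gene and less of its RNA per cell cannot be told apart.

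The levels of the members were compared first, as CPM per kilobase of exon. The length used was that of all exons counted for a gene, which can exceed that of its mRNA. It was 1713 nucleotides for Ddit3 and 2735 for Asns, against 890 and 2001 in the transcripts used above. Levels by transcript length were not computed, and the order of the members can depend on this choice. In MN1 total mRNA Atf4 was the highest, with 305 to 361 (median 344, n = 6) CPM per kilobase. Ddit4 followed at 156 to 261 (median 198) and Atf5 at 99.7 to 133 (median 116), and the ranges of these 3 did not overlap one another. Asns, Trib3 and Ddit3 followed with medians of 89.9, 65.5 and 63.0 and with ranges that overlapped from each to the next. Ppp1r15b and Chac1, then Sesn2 and Ppp1r15a, formed the lower pairs, with medians from 39.0 down to 16 CPM per kilobase and with overlap inside each pair. In MN1 footprints the medians of Atf4 (210), Ddit4 (181) and Asns (158) led, and their ranges overlapped. Asns thus stood in the leading group in footprints and below that group in total mRNA.

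In neuron total mRNA Atf4 again had the highest level per length, at 75.4 to 229 (median 174, n = 8) CPM per kilobase, and each member's range overlapped that of the next. In neuron footprints Asns (median 126), Atf4 (113) and Ddit4 (96.8) led, and a gap separated Ddit4 from Atf5 (45.0). Trib3 was the lowest in both, with a median of 2.24 CPM per kilobase in total mRNA and 1.06 in footprints. The neuron footprints of Trib3 rested on 18 counts over 8 libraries, with 0 to 5 in each. The 0 was in hTDP-43 replicate 2, where a count of 0 allows a level of up to 13.8 CPM (3 counts). Such limits cover counting error only.

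**Figure D2:**
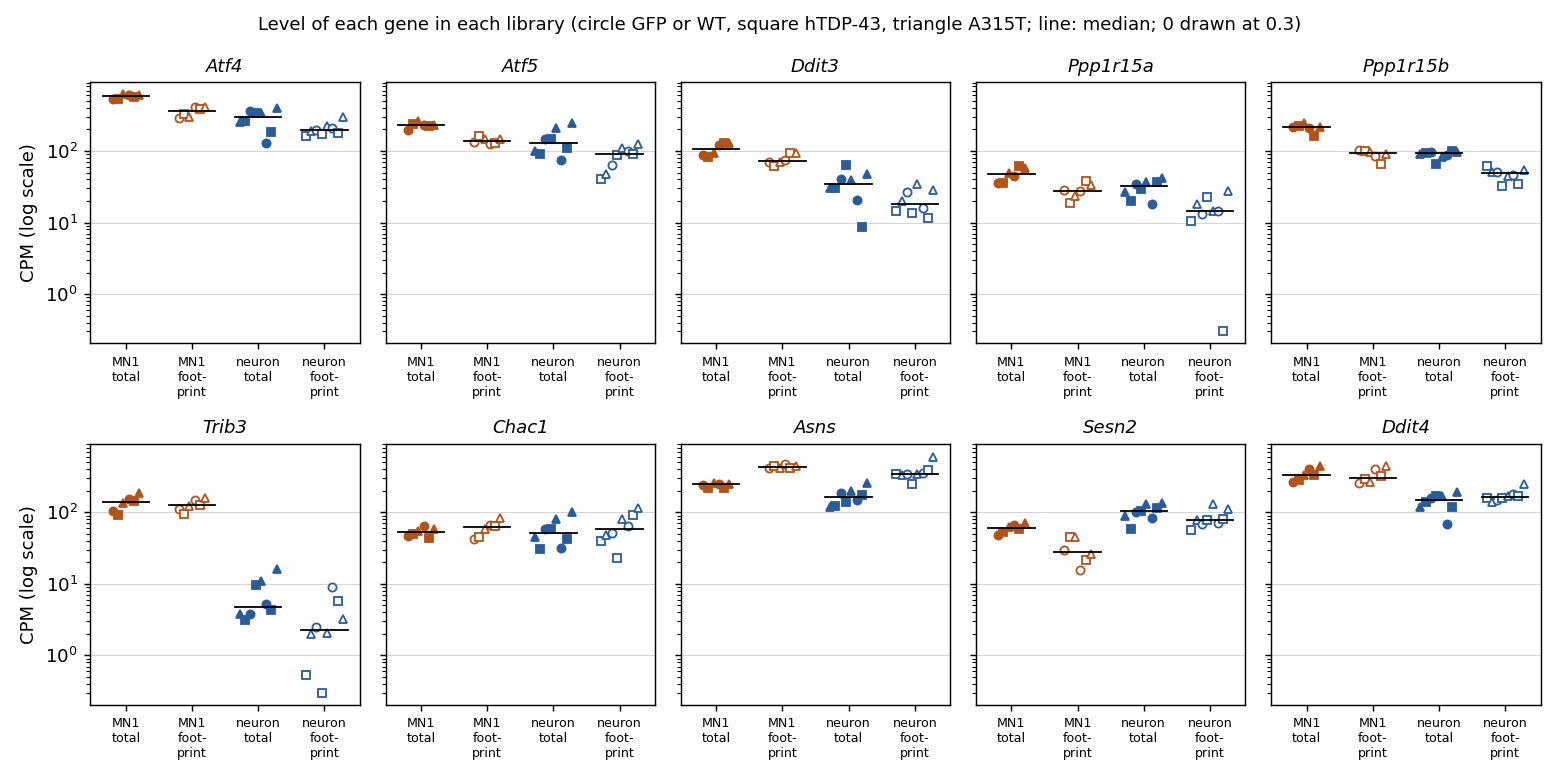
Each point is 1 library, with CPM on a log axis (a count of 0 is drawn near the bottom), circles for GFP or WT, squares for hTDP-43, triangles for A315T and a line at each median. Trib3 falls from 90.7 to 187 CPM in MN1 total mRNA to 3.13 to 16.4 CPM in neurons, while the points of Chac1 cover similar ranges in both cell types.

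Footprints were then set against total mRNA, to ask how ribosome occupancy of each mRNA stood relative to other genes. The ratio is given on the log2 scale, where 0 means that a gene took the same share of both library types. In MN1 cells, 6 of the 10 members had fewer footprints than their mRNA level (Atf4, Atf5, Ddit3, Ppp1r15a, Ppp1r15b and Sesn2), and Asns had more. Over all 10212 genes tested, 30.2% were called lower and 27.2% higher. The members' median log2 ratio was -0.57 and that of all genes was -0.05. The 6 that were lower were also the members with an upstream AUG, apart from Asns, and the 3 with no upstream AUG were not called in either direction.

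Atf4 had 527, 532, 575, 610, 614 and 622 CPM in the 6 MN1 total mRNA libraries and 287, 300, 334, 389, 407 and 417 CPM in the footprints. Every footprint value lay below every total mRNA value. The log2 ratio was -0.67 ± 0.12 (SE, adjusted p = 0.000269, edgeR's quasi-likelihood test), a 1.59-fold lower share of footprints. Atf5, a factor that controls the mitochondrial stress response, had the same log2 ratio of -0.67 ± 0.09 (adjusted p = 1.94e-05). Both genes were below 0 in 6 of 6 cultures, with Atf4 between -1.04 and -0.54 and Atf5 between -0.85 and -0.53. The log2 ratio of Ddit3 was -0.47 ± 0.18 (adjusted p = 0.0326). This call was lost when any of 3 cultures was left out (GFP replicate 2, A315T replicate 1 or A315T replicate 2). The fitted value ran from -0.52 to -0.41 over the 6 fits that left out 1 culture. Single cultures ran from -0.68 to -0.32.

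Ppp1r15b had the lowest ratio of the 10 members in MN1 cells. It had 160 to 246 CPM in total mRNA (median 218) and 65.3 to 104 CPM in footprints (median 94.1), so the ranges did not overlap. Its log2 ratio was -1.16 ± 0.11 (adjusted p = 8.17e-07), a 2.23-fold lower share of footprints, and -1.31 to -1.05 in single cultures. Ppp1r15a, its induced counterpart, had a log2 ratio of -0.76 ± 0.21 (adjusted p = 0.00686) on 13 to 29 footprint counts per library. Sesn2 had -0.89 ± 0.19 (adjusted p = 0.0011), but its cultures fell into 2 sets. The cultures of the first date had log2 ratios of -0.64 (GFP), -0.18 (hTDP-43) and -0.39 (A315T), and those of the second date had -1.92, -1.29 and -1.35.

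Asns went the other way. It had 217 to 255 CPM in MN1 total mRNA (median 246) and 415 to 482 CPM in footprints (median 431), with all footprint values above all total mRNA values. The log2 ratio was 0.91 ± 0.08 (adjusted p = 6.95e-07), a 1.88-fold higher share of footprints, and 0.71 to 1.00 in single cultures. Asns has 2 upstream AUGs in its GENCODE transcript, so the members with upstream AUGs annotated there did not all have low ratios. Both AUGs lie before the RefSeq start used for the promoters, and an mRNA that began at that start would lack them. The log2 ratios of Trib3 (-0.08 ± 0.17, adjusted p = 0.728), Chac1 (0.18 ± 0.16, adjusted p = 0.328) and Ddit4 (0.00, adjusted p = 0.984) did not pass the test.

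**Figure D3:**
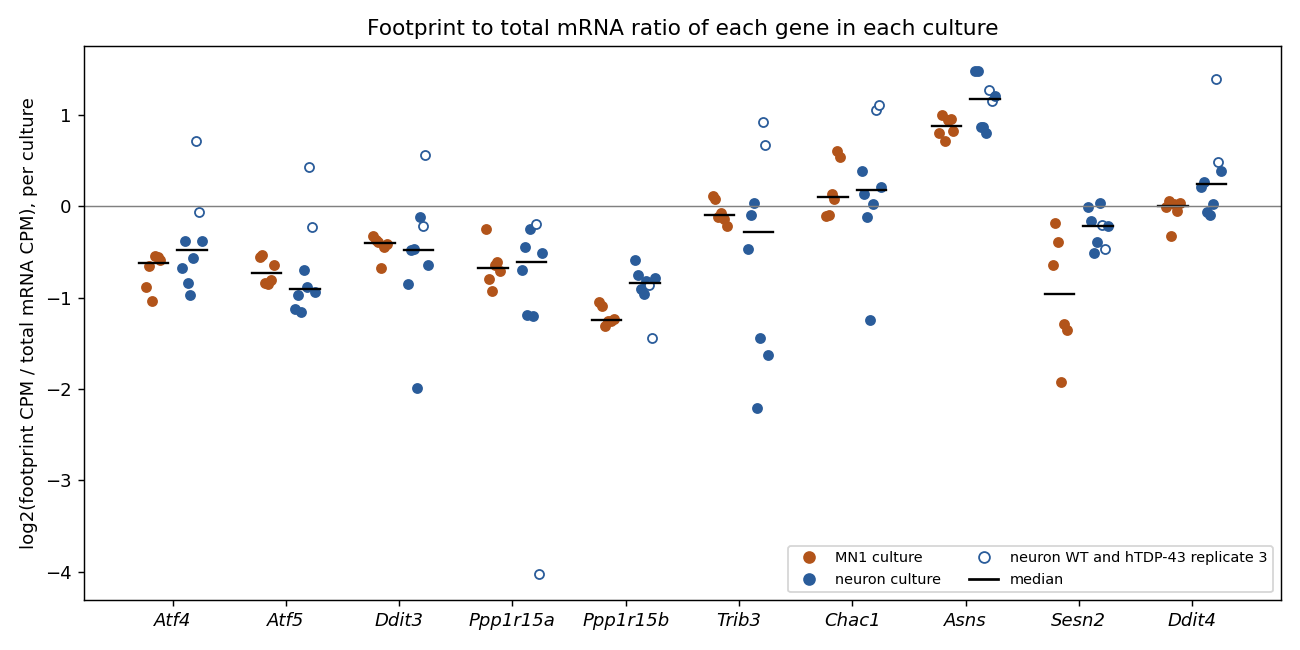
The log2 ratio of footprints to total mRNA is plotted for each culture (points) and member, for MN1 cells (orange) and neurons (blue), with a line at the median and open points for neuron WT and hTDP-43 replicate 3. Asns lies above 0 and Ppp1r15b below 0 in all 14 cultures, and the open Atf4 points (0.71 in WT and -0.06 in hTDP-43) lie above those of the other 6 neuron cultures.

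In neurons, 4 members had fewer footprints than their mRNA level (Ddit3, Ppp1r15a, Ppp1r15b and Trib3) and Asns had more. The split by upstream AUG seen in MN1 cells did not hold in this fit. Trib3 has no upstream AUG, while Atf4, Atf5 and Sesn2 have them and were not called. Over all 11654 genes tested, 27.3% were lower and 26.6% higher, and the median log2 ratio was -0.50 for the members and 0.00 for all genes. Asns had 118 to 258 CPM in neuron total mRNA (median 162) and 253 to 598 CPM in footprints (median 344). The ranges overlapped slightly, but within each culture the footprints were higher, with log2 ratios of 0.80 to 1.48 in 8 of 8 cultures and a fitted value of 1.24 ± 0.19 (adjusted p = 2.97e-05). Ppp1r15b had 66.5 to 98.8 CPM in total mRNA and 32.2 to 61.5 CPM in footprints, without overlap. Its log2 ratio was -0.80 ± 0.13 (adjusted p = 5.37e-05), and -1.44 to -0.59 in 8 of 8 cultures.

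Ppp1r15a had a log2 ratio of -0.95 ± 0.28 (adjusted p = 0.00744) in neurons. All 8 cultures were below 0, but 1 of them, hTDP-43 replicate 3, had no footprint count, which allows a level of up to 17.2 CPM (3 counts). Ddit3 had -0.72 ± 0.29 (adjusted p = 0.045) and Trib3 -1.41 ± 0.57 (adjusted p = 0.0434). Trib3 had a mean of 10.4 counts in this fit, and 3 of its 8 cultures lay above 0. Each of these 2 calls was lost in 5 of the 8 fits that left out 1 culture, with log2 ratios of -0.93 to -0.52 for Ddit3 and -1.84 to -1.03 for Trib3.

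The ratio of Atf4 in neurons turned on the cultures rich in Lars2. Its total mRNA was 357 and 130 CPM in the WT cultures (replicates 2 and 3), 263, 345 and 187 CPM in the hTDP-43 cultures and 251, 338 and 395 CPM in the A315T cultures. The lowest values, 130 and 187, were those of the cultures rich in Lars2. Its footprints were 198 and 212 CPM in WT, 162, 175 and 178 CPM in hTDP-43 and 191, 226 and 302 CPM in A315T cultures, so the same cultures did not stand apart there. The log2 ratio was -0.33 ± 0.20 (adjusted p = 0.166) over 8 cultures and -0.67 ± 0.18 (adjusted p = 0.00478) without these 2. Atf5 moved in the same way, from -0.66 ± 0.29 (adjusted p = 0.0678) to -1.08 ± 0.32 (adjusted p = 0.011). Without these cultures 6 members were lower and 1 was higher, when 25.6% of genes were lower and 23.4% higher. The part of the Lars2 reads in these values was not tested.

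With the culture as a block, which pairs the footprints and total mRNA of 1 culture, 7 members were called in neurons in place of 5. Atf5 was then lower (-0.65 ± 0.18, adjusted p = 0.00547) and Ddit4 higher (0.44 ± 0.15, adjusted p = 0.0199), when 28.8% of genes were lower and 28.7% higher. Ddit4 without the block had 0.42 ± 0.19 (adjusted p = 0.067), and without the cultures rich in Lars2 it had 0.12 ± 0.18 (adjusted p = 0.617). Sesn2 (-0.22 ± 0.20, adjusted p = 0.375) and Chac1 (0.28 ± 0.28, adjusted p = 0.42) did not pass the test in neurons.

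Features of the mRNA moved with the ratio over all genes. In MN1 cells the median log2 ratio was 0.09 for 5059 genes with no upstream AUG, -0.21 for 4941 genes with 1 or more and -0.27 for those with an overlapping frame. In neurons these medians were 0.15, -0.13 and -0.24. The part of the mRNA that is coding also moved with it. The median in MN1 cells was -0.26 for the lowest of 4 equal classes of coding share and 0.08 for the highest class, and in neurons -0.29 and 0.15. In each class, in both cell types, the median of the genes with upstream AUGs was below that of the genes without. Ppp1r15b had a coding share of 37.4% and Sesn2 of 41.4%, while Asns had 84.1%. Ppp1r15a had 84.5%, close to Asns, and its ratio was on the other side of 0. Chac1 and Ddit4, without upstream AUGs, had 40.9% and 39.1%. The parts of upstream frames and of coding share in the members' ratios were not tested.

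The cell types were compared next, with each cell type taken as the mean of its 3 groups. In total mRNA 8 members were lower in neurons than in MN1 cells, and Sesn2 was higher. In footprints 7 were lower and Sesn2 was again higher. Over all genes tested, 38.4% were lower and 42.6% higher in total mRNA, and 39.9% were lower and 42.7% higher in footprints. The members' median log2 difference was -1.01 in total mRNA and -0.95 in footprints, and the median of all genes was 0.09 and 0.05.

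Trib3, the pseudokinase gene, differed the most among the members. It had 90.7 to 187 CPM (median 139) in MN1 total mRNA and 3.13 to 16.4 CPM (median 4.75) in neurons. In footprints it had 94.2 to 159 CPM (median 126) in MN1 cells and 0 to 8.99 CPM (median 2.26) in neurons. There was no overlap in either library type. The fitted log2 difference was -4.58 ± 0.32 (adjusted p = 5.35e-09), or 23.9-fold lower, in total mRNA. In footprints it was -5.87 ± 0.27 (adjusted p = 7.71e-15). The neuron footprint libraries had 0 to 5 counts each, so no fold is given for footprints. The footprint value ran from -6.09 to -5.26 in fits that left out 1 culture. It was -6.34 without the cultures rich in Lars2. Ddit3, whose protein binds TRIB3, had 81.7 to 129 CPM in MN1 total mRNA and 8.59 to 63.2 CPM in neurons. Its log2 difference was -1.70 ± 0.26 (adjusted p = 2.9e-05) in total mRNA and -1.97 ± 0.19 (adjusted p = 3.14e-09) in footprints.

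Among the transcription factors, Atf4 was 2.20-fold lower in neuron total mRNA, at -1.14 ± 0.20 (adjusted p = 8.02e-05), and 1.77-fold lower in footprints, at -0.82 ± 0.15 (adjusted p = 2.52e-05). Its total mRNA ranges did not overlap, and its footprint ranges did, by 1 neuron library (302 CPM) above the lowest MN1 libraries (287 and 300 CPM). Without the cultures rich in Lars2 the differences were -0.84 ± 0.13 and -0.83 ± 0.17, both still called. Atf5 was lower by -0.88 ± 0.20 (adjusted p = 0.00103) in total mRNA and -0.96 ± 0.24 (adjusted p = 0.000929) in footprints.

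Both phosphatase subunits were lower in neurons. The log2 difference of Ppp1r15b was -1.30 ± 0.12 (adjusted p = 7.21e-08) in total mRNA and -0.94 ± 0.13 (adjusted p = 1.44e-06) in footprints, without overlap. That of Ppp1r15a was -0.77 ± 0.21 (adjusted p = 0.00354) and -0.99 ± 0.27 (adjusted p = 0.0021), with ranges that overlapped in both. Of the mTORC1 inhibitors, Ddit4 was lower, at -1.39 ± 0.19 (adjusted p = 6.29e-06) and -0.98 ± 0.17 (adjusted p = 1.16e-05), and Sesn2 was higher.

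Sesn2 had 49.0 to 71.6 CPM in MN1 total mRNA and 59.1 to 134 CPM in neurons, and 15.7 to 45.8 CPM in MN1 footprints and 57.3 to 131 CPM in neuron footprints. The footprint ranges did not overlap. The log2 difference was 0.65 ± 0.18 (adjusted p = 0.00361) in total mRNA and 1.26 ± 0.23 (adjusted p = 3.14e-05), or 2.40-fold higher, in footprints. Asns was lower in neuron total mRNA (-0.58 ± 0.17, adjusted p = 0.00494), while its difference in footprints was -0.26 ± 0.15 (adjusted p = 0.103). Chac1 was not called in either, with -0.09 ± 0.21 (adjusted p = 0.706) and -0.06 ± 0.25 (adjusted p = 0.822).

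**Figure D4:**
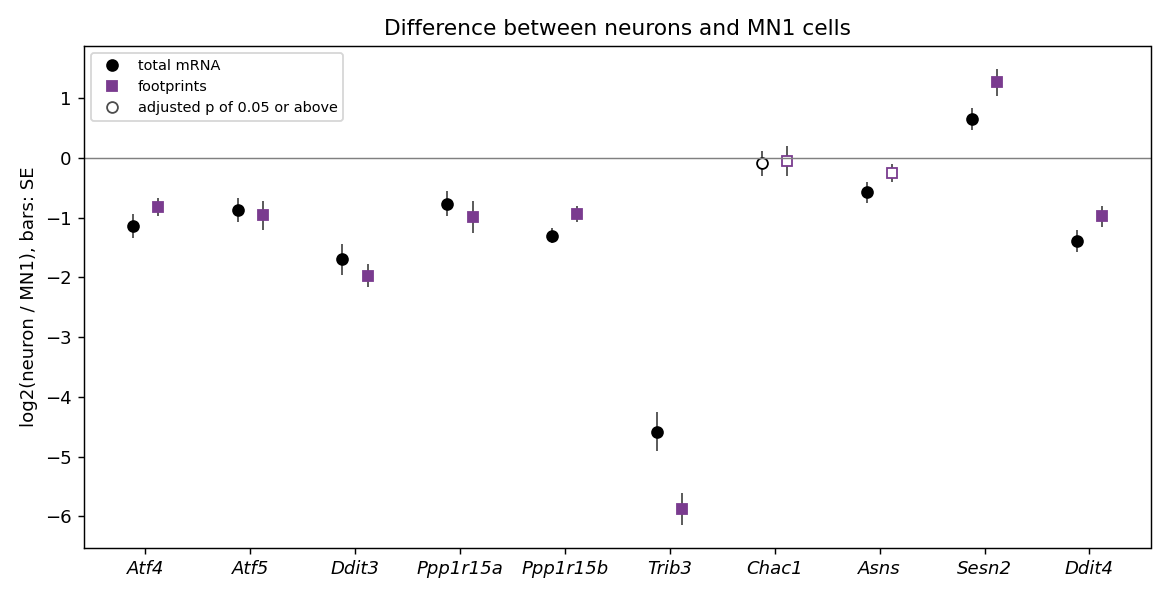
The fitted log2 difference between neurons and MN1 cells is shown for each member in total mRNA (circles) and footprints (squares), with error bars of 1 SE and filled symbols for calls. Trib3 lies farthest below 0 (-4.58 and -5.87), Sesn2 lies above 0 (0.65 and 1.26), and both symbols of Chac1 are open.

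The difference of the footprint ratios between the cell types was tested as an interaction. With edgeR, 0 of the 10 members were called, when 8.07% of all genes were, and 2 had an unadjusted p below 0.05. DESeq2 also called 0. The median of all genes was itself 0.20 with the scaling used here and -0.02 with another (relative log expression), so values near 0.20 stood at the median. Sesn2 had a log2 value of 0.76 ± 0.31 (adjusted p = 0.135) and Ppp1r15b of 0.47 ± 0.18 (adjusted p = 0.103). With the culture as a block Sesn2 was called (0.82 ± 0.24, adjusted p = 0.0339), when 10.7% of genes were called. Atf4 (0.44 ± 0.26, adjusted p = 0.321), Ddit4 (0.52 ± 0.26, adjusted p = 0.234), Asns (0.43 ± 0.24, adjusted p = 0.287) and Trib3 (-1.21 ± 0.59, adjusted p = 0.215) did not pass the test. Nor did Atf5 (0.09 ± 0.35, adjusted p = 0.985), Ddit3 (-0.15 ± 0.35, adjusted p = 0.903), Ppp1r15a (-0.10 ± 0.36, adjusted p = 0.979) and Chac1 (0.17 ± 0.36, adjusted p = 0.872).

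The comparisons of TDP-43 genotypes ask whether expression of hTDP-43 or of the mutant moved the members. In the neuron cultures the paper reports somewhat more mutant protein than hTDP-43, so allele and amount cannot be told apart there. In 18 comparisons (3 pairs of groups, 2 cell types, and footprints, total mRNA or their ratio) edgeR called no member, and DESeq2 called none. Few genes of any kind were called. The share was 0.00406% over the MN1 footprint comparisons, 0.00658% over MN1 total mRNA and 0.0% over the MN1 ratio and over all 3 kinds of neuron comparison. An unadjusted p below 0.05 was found in 2 tests of members, 1 for footprints and 1 for mRNA of neurons. In neuron footprints 25 of the 30 member tests passed the filter on low counts, and in the neuron ratio 29 of 30. With the culture date as a block 0.344% of all tests were called and again no member. An unadjusted p below 0.05 was then found for members in 2 tests of MN1 footprints, 1 of MN1 total mRNA, 8 of neuron footprints, 6 of neuron total mRNA and 0 of either ratio. These counts of unadjusted p come from comparisons that share cultures, and the share of all genes at that threshold is not given beside them. They are not a result about the members.

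In MN1 cells the members' log2 fold changes ran from -0.21 to 0.74 in footprints (SE 0.18 to 0.43) and from -0.24 to 0.31 in total mRNA (SE 0.12 to 0.31). Atf4 had 287 and 417 CPM in GFP footprints, 334 and 389 in hTDP-43 and 300 and 407 in A315T. Its total mRNA was 532 and 610, 527 and 575, and 622 and 614 CPM in the same order. The footprint values of the 3 groups overlapped, and the cultures of the second date were higher in each group. Asns was the target with the highest median footprint CPM when length was not taken into account. It had 417 and 482 CPM in GFP footprints, 440 and 422 in hTDP-43 and 415 and 443 in A315T, again with overlap.

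In neurons the log2 fold changes ran from -0.46 to 0.93 in footprints (SE 0.21 to 0.51) and from -0.23 to 1.12 in total mRNA (SE 0.21 to 0.73). The comparisons pooled in these ranges differed. In footprints 9 of 9 members tested were above 0 for A315T against WT and 9 of 9 against hTDP-43. For hTDP-43 against WT 1 of 7 was. In total mRNA these counts were 9, 10 and 6 of 10. The medians of all genes ran from -0.01 to 0.01. These comparisons share cultures and no member was called, so the counts are a description. Trib3 had the largest value in total mRNA, with 3.79, 11.0 and 16.4 CPM in A315T, 3.85 and 5.2 in WT and 3.13, 9.8 and 4.3 in hTDP-43. The log2 fold change was 1.12 ± 0.67 against WT and 1.08 ± 0.66 against hTDP-43 (adjusted p = 1.0 for both), and the A315T replicate 1 value lay within or below the other groups. These 2 comparisons share the A315T cultures. When MN1 hTDP-43 replicate 2 was left out, Trib3 was called in MN1 total mRNA between A315T and hTDP-43 (0.74, adjusted p = 0.0127). In that fit 1 hTDP-43 culture, of the first date, was left, and it was assumed to vary like the other cultures fitted. When neuron WT replicate 2 was left out, so that the Lars2-rich WT culture stood alone under the same assumption, Atf4 (1.22, adjusted p = 0.0242) and Ddit4 (1.10, adjusted p = 0.0419) were called in neuron total mRNA between A315T and WT. Without both cultures rich in Lars2, WT replicate 2 in turn stood alone under the same assumption. The log2 fold change against WT was then -0.11 for Atf4 and 0.02 for Ddit4.

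Whether A315T acted differently in the cell types was tested as the difference of its fold changes against the control. No member was called in footprints or in total mRNA by edgeR (0.0% of all genes in each), none had an unadjusted p below 0.05, and DESeq2 called none. With the replicate block again no member was called, when 8 of 10866 genes were in footprints and 0 of 12962 in total mRNA. Trib3 in total mRNA then had 1.25 ± 0.41 (unadjusted p = 0.0146, edgeR's quasi-likelihood test). Without the block the members' differences ran from -1.11 to 0.56 in footprints and from -0.17 to 0.86 in total mRNA. The lowest was Trib3 in footprints (-1.11 ± 0.75, adjusted p = 1.0), which had 1 to 4 counts in each A315T neuron library. Without the 2 cultures rich in Lars2, where WT replicate 2 was the only WT culture, it was -0.23. Ddit3 was then the lowest at -0.26.

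Members also differed between the 2 culture dates of MN1 cells, as the titles give them. The title of 1 library, the footprints of GFP replicate 1, gives the same day and month with another year, and it was taken as the same date. Cultures of the second date had more total mRNA of Trib3, Ddit3, Ddit4 and Ppp1r15a than those of the first, 4 of 10 members when 6.42% of all genes were higher. Trib3 had 103, 90.7 and 136 CPM on the first date (GFP, hTDP-43 and A315T) and 156, 142 and 187 CPM on the second. It was higher on the second date within each group, and the log2 fold change was 0.60 ± 0.09 (adjusted p = 0.000314). Ddit4 had 263, 281 and 338 CPM on the first date and 398, 332 and 440 CPM on the second (0.45 ± 0.07, adjusted p = 0.00045). Ddit3 had 88.1, 81.7 and 93.3 CPM and 122, 129 and 128 CPM (0.56 ± 0.10, adjusted p = 0.00118). The values of the dates did not overlap for Trib3 and Ddit3, and they did for Ddit4. Ppp1r15a had a log2 fold change of 0.47 ± 0.14 (adjusted p = 0.0351), a call that was lost without either hTDP-43 culture and with DESeq2 (adjusted p = 0.332), which called the other 3.

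In MN1 footprints 3 members were higher on the second date, when 2.64% of all genes were. These were Ddit4 (0.58 ± 0.11, adjusted p = 0.00497), Atf4 (0.45 ± 0.10, adjusted p = 0.0116) and Trib3 (0.44 ± 0.12, adjusted p = 0.0388). DESeq2 called 0 of them. The Trib3 call was lost in all 6 fits that left out 1 culture, that of Atf4 in 4 (without either GFP culture or either A315T culture) and that of Ddit4 without A315T replicate 2. What differed between the dates is not in the labels, and its part was not tested.

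**Figure D5:**
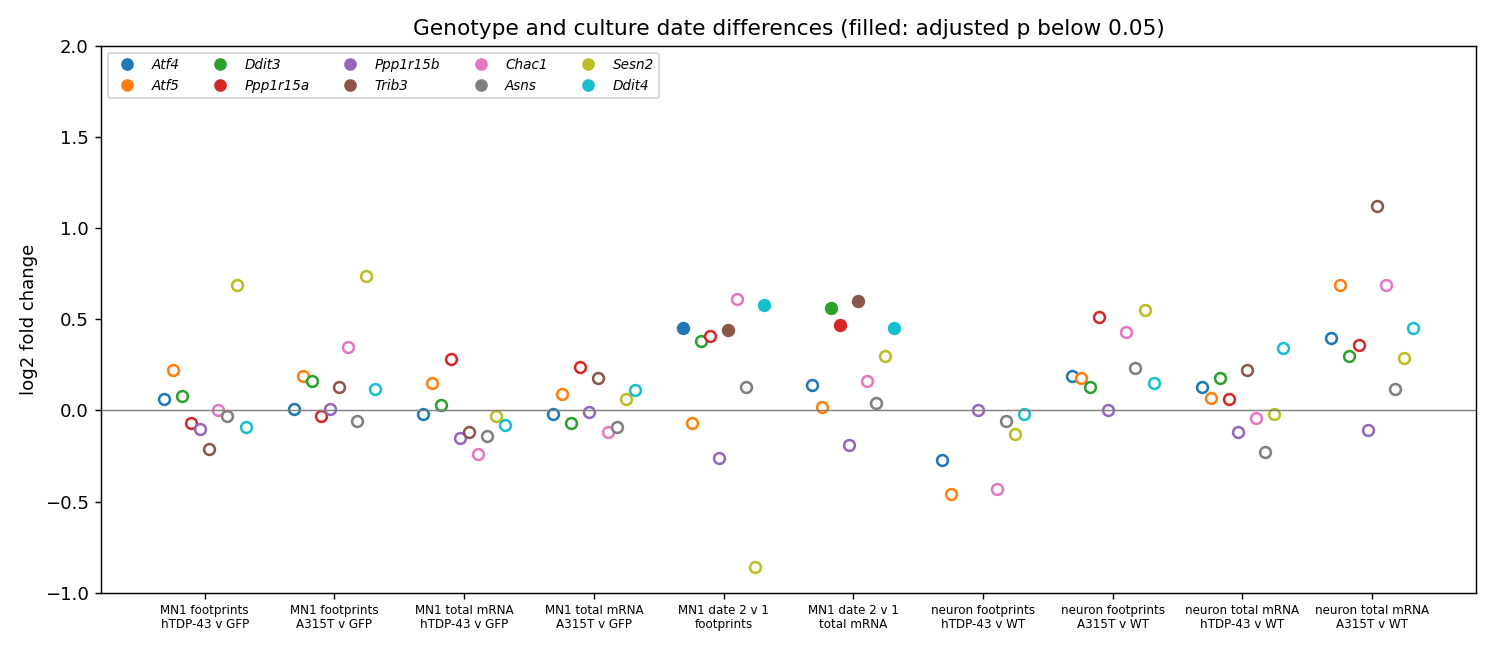
Each point is the log2 fold change of 1 member in 1 comparison, for hTDP-43 or A315T against the control in MN1 cells and neurons and for the second against the first culture date in MN1 cells, with filled points for an adjusted p below 0.05. All genotype points are open, up to Trib3 at 1.12 in neuron total mRNA, and the filled points are the 3 members in footprints and the 4 in total mRNA that were higher on the second date.

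Other genes of the pathway were counted from lists made by name. Of all genes, 27.2% had more footprints than mRNA and 30.2% fewer in MN1 cells, and 26.6% and 27.3% in neurons. In MN1 cells 20 of 35 other ATF4 targets had more footprints than mRNA and 2 had fewer (median log2 ratio 0.40, all genes -0.05). Eprs, a tRNA synthetase, had 1.21 ± 0.12 and Slc7a11, the cystine carrier, 0.91 ± 0.23, both in the direction of Asns. Jdp2 (-1.67 ± 0.40) and Atf3 (-0.89 ± 0.37), which encode bZIP repressors, had fewer. In neurons 19 of 33 had more and 2 fewer (median 0.60, all genes 0.00), with Slc3a2, a subunit of amino acid carriers, at 1.39 ± 0.20.

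Of the 10 other mRNAs known for upstream frames, 5 had fewer footprints in MN1 cells and Eprs had more (median -0.40). In neurons 3 had fewer and Eprs had more (median -0.38). Cebpa, a C/EBP factor, had -1.79 ± 0.64 in MN1 cells and -1.56 ± 0.46 in neurons. Of the eIF2 kinases, eIF2 and eIF2B subunits and phosphatase catalytic subunits, 4 of 17 had more and 3 fewer footprints in MN1 cells (median 0.14), and 7 of 16 had more and 3 fewer in neurons (median 0.26). Eif2s1, the subunit that is phosphorylated, had 1.06 ± 0.11 and 1.14 ± 0.18. Ppp1cc, a catalytic subunit that Ppp1r15 proteins can bind, had -1.43 ± 0.10 and -1.12 ± 0.15. Of 21 genes of the ATF6 and IRE1 branches, which handle protein folding in the endoplasmic reticulum, 12 had more and 4 fewer in MN1 cells (median 0.33), and 13 and 3 in neurons (median 0.60). Hsp90b1, an endoplasmic reticulum chaperone, had 1.7 ± 0.14 and 1.97 ± 0.14, and Ern1, which encodes IRE1 itself, -1.13 ± 0.15 and -0.93 ± 0.31.

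Between the cell types, the lists were mostly lower in neuron total mRNA, where 38.4% of all genes were lower and 42.6% higher. Of the other ATF4 targets 26 of 36 were lower and 6 higher (median log2 difference -1.16), of the ATF6 and IRE1 genes 18 of 21 were lower and 1 higher (-1.57), of the eIF2 list 11 of 17 were lower and 2 higher (-0.62), and of the other uORF mRNAs 7 of 10 were lower and 2 higher (-1.1). In footprints the counts were 25 lower and 7 higher of 35, 16 and 2 of 21, 12 and 3 of 17, and 8 and 1 of 9, when 39.9% of all genes were lower and 42.7% higher. Gdf15, a secreted stress factor, was at -5.93 ± 0.39 in total mRNA, and Eif2ak2, the kinase PKR, was at -3.13 ± 0.30. Vldlr, a lipoprotein receptor and listed ATF4 target, was called higher in neurons, but 5 of the 6 MN1 total mRNA libraries had 0 counts of it and the other had 1, so no fold is given. Slc7a11 was higher in neurons at 1.23 ± 0.19, and Impact, an inhibitor of the kinase GCN2, was at 1.03 ± 0.15. In the ratio, 0 of the listed ATF4 targets, ATF6 and IRE1 genes and other uORF mRNAs were lower, and 3 of 36, 8 of 21 and 1 of 10 were higher, against the shift of 0.20 in all genes. Of the eIF2 list 2 of 17 were higher and 1 was lower (Eif2s2, a subunit of eIF2, -0.63 ± 0.20, adjusted p = 0.0485). Of all genes 8.07% were called in either direction. In the genotype comparisons edgeR called no gene of these lists, and with the replicate block it called 1 ATF6 or IRE1 gene (lower) and 1 other uORF mRNA (higher), both in MN1 total mRNA. On the second culture date 3 of 35 other ATF4 targets were higher and 2 lower in MN1 total mRNA, and 4 of 32 were higher in footprints, when 6.42% and 2.64% of all genes were higher.

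Among the genes most like Atf4 over the 14 total mRNA libraries, by Pearson's r of log2 CPM after each cell type's mean was subtracted, were Eef1b2 (0.982), Rack1 (0.975), Aup1 (0.970) and 1500009C09Rik (0.968), out of 12800 genes. The libraries whose Atf4 value lay farthest from the median were those of the cultures rich in Lars2. Without them, a choice made on Atf4 itself, the values were 0.920, 0.962, 0.915 and 0.809. Of the members, Ddit4 had 0.906 (rank 290), Atf5 0.821 (rank 1058), Chac1 0.772 (rank 1558) and Ddit3 0.748 (rank 1803). Ppp1r15a (0.597), Trib3 (0.513), Sesn2 (0.440), Asns (0.416) and Ppp1r15b (-0.126) ranked lower still. Many genes outside the list were thus more like Atf4 than the members were. The order changed without those libraries, with Atf5 at 0.854, Asns at 0.853, Chac1 at 0.827, Ddit4 at 0.817 and Sesn2 at 0.802. Trib3 was then at 0.775, Ppp1r15a at 0.767, Ddit3 at 0.706 and Ppp1r15b at -0.031. The libraries share cultures, dates and scaling, and these values are a description.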

How the data were processed

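Ribosome footprints and total mRNA of each culture gave the 28 libraries, all mapped to groups by their labels. Per the study's methods, the authors clipped adapters with cutadapt 1.8.1, removed reads on non-coding RNA with Bowtie2, aligned to GRCm38 with TopHat2 and counted reads on exons with featureCounts 1.4.4. The deposited values are raw counts per gene, neither normalized nor pooled. They cover whole exons, UTRs included, without regard to strand, so reads on the exon bases that Atf5 (4.12%), Ddit3 (4.73%), Ppp1r15a (0.409%) and Ppp1r15b (11.4%) share with other genes cannot be told apart.

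Counts of all genes were fitted with edgeR 4.0.16 in R 4.3.3. The filter on low counts (minimum count 10, minimum total count 15), TMM scaling, the quasi-likelihood test and Benjamini-Hochberg adjustment over all genes tested were used, with calls at an adjusted p below 0.05. The SE is the log2 value divided by the root of the F statistic, and is not printed where p was near 1. The ratio and its difference between cell types were tested in 1 model over both library types. Ratios of single cultures and correlations use log2 CPM with a prior count of 2. DESeq2 1.42.0, other scaling, no filter, a replicate block, all groups in 1 fit and leaving out each culture were the alternatives, and leaving out the 2 cultures with over 10% of total mRNA reads on Lars2 was added after seeing the data. Scripts were tested on simulated data.

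The members and lists were chosen with earlier results of these data known. All members are named in the ratio and cell type comparisons. Elsewhere a member is named where it was called or where its log2 value was at least 1 in size with a mean of at least 20 counts, and further members with values were chosen after these were seen. Up to 4 called genes per list, those of largest size, could be named. Nothing says that cultures of a date came from separate animals or passages, so p-values measure the spread between cultures. Same-numbered cultures share the date in their titles, apart from 1 title (MN1 GFP footprint replicate 1) with another year that was taken as the same date, and their deviations from group means correlated by 0.336 (MN1 footprints), 0.442 (MN1 total mRNA), 0.120 (neuron footprints) and 0.171 (neuron total mRNA) on average. Reading frames came from GENCODE M21 transcripts of GRCm38, and promoters from RefSeq. Protein sequences were not used here. One of the 5 genes most like Atf4 is not reported here.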

Additional observations from a re-analysis of the deposited data

Results flagged for a closer look

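The footprint ratio of Sesn2, the leucine-sensing inhibitor of mTORC1, differed between neurons and MN1 cells by 0.82 ± 0.24 on the log2 scale (adjusted p = 0.0339) in the fit with the culture as a block, and it is listed here because that is a test of the difference between the cell types. Without the block the value was 0.76 ± 0.31 (adjusted p = 0.135) and did not pass. The MN1 cultures of the second date had the lowest Sesn2 ratios, on 8 to 15 footprint counts each. The cause was not tested.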

How the results depend on the processing

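Depth limits the members with few counts, above all Trib3 and Ppp1r15a in neuron footprints. Of 880 comparisons of a member's value with an alternative, 806 kept direction and side of the threshold. Counts of called genes in the pathway lists stayed within 1.5 times in 73 such comparisons and moved further in 15. The members called in MN1 ratios (6 to 7 without 1 culture), in total mRNA between cell types (9 in each such fit) and in footprints between cell types (8 to 9) stayed within 1.5 times under every alternative run. Members called in the neuron ratio were 3 to 7 without 1 culture (3 without hTDP-43 replicate 1, hTDP-43 replicate 2 or A315T replicate 3). For the difference of ratios between cell types, where the report has 0, the count was 1 with the replicate block, and 0 to 2 without 1 culture (2 without WT replicate 2, Atf4 and Ddit4). It was 0 to 1 for MN1 genotypes in total mRNA, 0 to 2 for neuron genotypes in total mRNA, and 0 to 3 for MN1 culture dates in footprints, where DESeq2 gave 0. Apart from the changes named in the report, the block changed no member's call.

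Values that changed sign were all short of the threshold. For Chac1 the cell type difference in total mRNA was 0.02 without hTDP-43 replicate 1, 0.07 without WT replicate 3 and 0.06 without the 2 cultures rich in Lars2, within a range of -0.26 to 0.07, and in footprints it ran from -0.12 to 0.13. The Chac1 neuron ratio was -0.07 without the cultures rich in Lars2. In the difference of ratios, DESeq2, relative log expression scaling and leaving out these cultures gave -0.04, -0.13 and -0.26 for Atf5 and -0.02, -0.05 and -0.10 for Chac1. Without 1 culture it ran from -0.19 to 0.35 for Atf5, from -0.14 to 0.39 for Chac1, from -0.33 to 0.03 for Ddit3 and from -0.33 to 0.11 for Ppp1r15a. The cause was not tested.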
